A study of Homo sapiens with 12 samples.

Results

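The 10 genes SOCS1, SOCS2, SOCS3, CISH, STAT3, STAT5A, STAT5B, STAT6, IL6ST and PRLR, chosen by symbol from the 20531 genes listed, encode receptors, transcription factors and feedback inhibitors of cytokine signalling. Their transcripts were measured by RNAseq in 4 groups of 3 replicates of SKBR-3, an established breast cancer cell line with HER2 amplification and no estrogen receptor. All groups received an siRNA pool, either a non-targeting (NT) control or a pool against FOXA1, a pioneer transcription factor of luminal breast cells. DMSO or lapatinib at 300 nM, a drug that inhibits HER2 and EGFR kinase activity, followed for 24 h. The labels place the siRNA 48 h before the drug, and the methods give a different interval of 24 h. Only 1 cell line was used, and the depletion of FOXA1 was transient and partial. The design asks how the genes respond to HER2 inhibition, to loss of FOXA1, and whether the response to lapatinib differs when FOXA1 is low.

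Cytokines and hormones such as interleukin-6 and prolactin bind receptors that carry JAK kinases, which phosphorylate the receptor and then STAT proteins. Phosphorylated STATs pair, enter the nucleus and activate genes, among them CISH and the SOCS genes, whose proteins bind receptors or JAKs and shut the signal down. In the mammary gland prolactin acts through PRLR and the STAT5 proteins to drive the secretory epithelium. RNAseq measures the transcripts of these proteins and not their phosphorylation.

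FOXA1 itself was measured first. Its normalized counts (counts divided by the scaled library size, at the average depth of the 12 libraries) were 8446, 8308 and 8767 with NT siRNA and DMSO and 12672, 12168 and 13177 with NT siRNA and lapatinib. After FOXA1 siRNA the normalized counts fell to 1160.1, 1362 and 1564 in DMSO and to 1642, 1888 and 2384 in lapatinib, so all 6 FOXA1 siRNA libraries lay below all 6 NT libraries, with log2 fold changes of -2.63 in DMSO and -2.69 in lapatinib. The libraries held 25749578 to 32271850 counts, and no pair of replicates agreed within sampling noise. The replicate 2 libraries stood apart, since 13.2% of genes were highest in replicate 2 of all 4 groups, against 5.38% for replicate 1 and 5.96% for replicate 3. The epithelial markers ERBB2, GRB7, KRT8, KRT18, KRT19 and EPCAM summed to 429000 to 787000 normalized counts per library, whereas 5 fibroblast markers summed to 273 to 529, 5 immune markers to 458 to 1270 and 3 endothelial markers to 272 to 746, and none of these markers was at 0 in all 12 libraries. Their part in the results was not tested.

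Levels were compared between genes as TPM, which is per length. In control cells (NT siRNA, DMSO) STAT3, the transcription factor activated by interleukin-6 type cytokines, was by far the highest at 181 ± 15.5 TPM (SD, n = 3). IL6ST, the signal-transducing receptor chain gp130 of that cytokine family, followed at 47 ± 2.2 TPM, and its range overlapped that of STAT5B at 44.9 ± 1.52 TPM. CISH came next at 37.7 ± 2.01 TPM and PRLR at 25.4 ± 1.44 TPM, with no overlap between neighbours. STAT6 at 12.8 ± 5.57 TPM and SOCS1 at 8.76 ± 0.594 TPM overlapped. SOCS2 stood at 3.83 ± 0.369 TPM, above SOCS3 at 2.66 ± 0.546 TPM and STAT5A at 2.15 ± 0.84 TPM, which overlapped each other. The order moved with treatment. SOCS2 passed SOCS1 in NT lapatinib cells at 16.8 ± 3.19 TPM and was second to last with FOXA1 siRNA in either drug arm, and PRLR rose to the second rank in FOXA1 siRNA DMSO cells at 43.1 ± 4.25 TPM, overlapping STAT5B. In FOXA1 siRNA lapatinib cells SOCS3 was the lowest of the 10 genes, at 0.277 ± 0.0833 TPM.

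**Figure D1:**
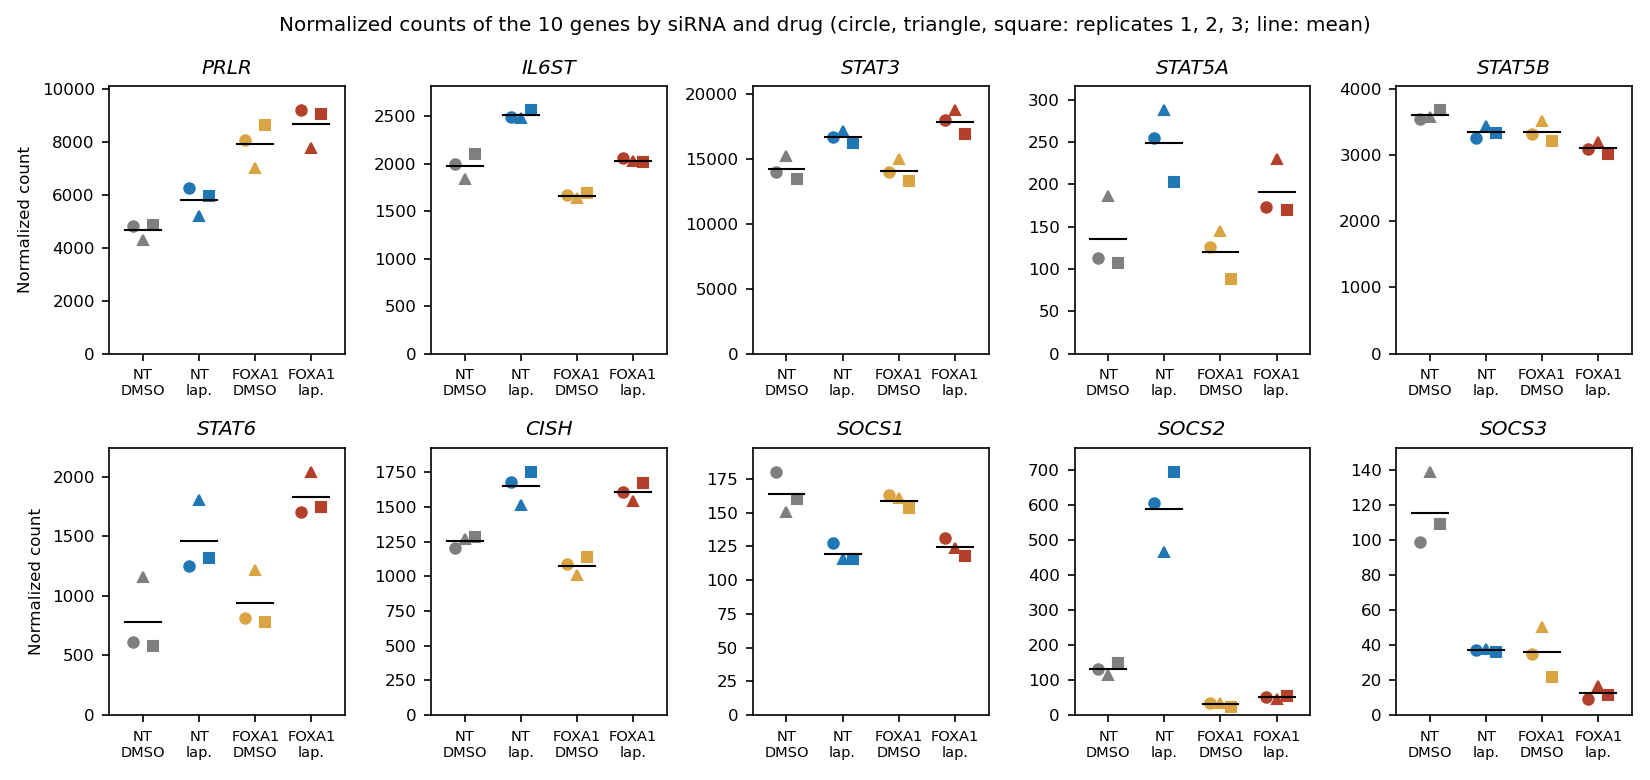
Normalized counts (y axis, linear from 0, own scale for each gene) of the 10 genes in the 4 groups of siRNA and drug (x axis). Circles, triangles and squares are replicates 1, 2 and 3 and the line is the mean of 3. SOCS2 is high in the NT lapatinib group alone, SOCS3 is highest in the NT DMSO group, and STAT6 is highest in replicate 2 of every group.

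Each comparison was fitted in edgeR (quasi-likelihood test), p-values were adjusted by Benjamini-Hochberg over all genes tested, and a gene was called at an adjusted p under 0.05. With NT siRNA, lapatinib raised 7 of the 10 genes (SOCS2, STAT6, STAT5A, CISH, IL6ST, PRLR and STAT3) and lowered 2 (SOCS3 and SOCS1). Of the 13713 genes tested, 59.7% were called, 30.5% higher and 29.2% lower, so the response touched most of the transcriptome. The median log2 fold change was 0.35 over the 10 genes and 0.03 over all genes tested. Changes of at least 1 on the log2 scale were fewer, with 1 gene higher (SOCS2) and 1 lower (SOCS3), against 6.64% and 7.13% of all genes. The block on replicate number called the same count of the 10 genes, 7 higher and 2 lower, against 67.3% of all genes. In bulk RNA, fewer cells that express a gene and less RNA per cell cannot be told apart.

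SOCS2, an inhibitor of growth hormone and prolactin signalling, had the largest change of the set. It measured 132, 115 and 148.6 normalized counts in NT DMSO cells and 605, 464 and 694 in NT lapatinib cells. Every lapatinib library lay above every DMSO library. The fold was 4.52, a log2 fold change of 2.18 (SE 0.17, 95% interval 1.79 to 2.56, edgeR adjusted p = 1.75e-05), and within replicate numbers it was 4.58, 4.04 and 4.67.

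SOCS3, the feedback inhibitor of gp130 and STAT3 signalling, moved the other way. Its normalized counts were 98.5, 138.8 and 109 in NT DMSO cells and 36.9, 37.8 and 35.9 in NT lapatinib cells, with no overlap. The gene fell by 1.62 on the log2 scale (SE 0.19, edgeR adjusted p = 0.000162), 3.08-fold. SOCS1, the broad JAK inhibitor of interferon and interleukin signalling, fell from 180.3, 151 and 160.1 to 127, 115 and 116 normalized counts. The SOCS1 groups did not overlap, and the log2 fold change was -0.43 (SE 0.13, edgeR adjusted p = 0.0196). That call was lost without NT DMSO replicate 1 or without NT lapatinib replicate 3, with adjusted p up to 0.0839.

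CISH, the first described member of the SOCS family and a textbook STAT5 target, rose. Its normalized counts were 1208, 1271 and 1286 in NT DMSO cells against 1679.9, 1516 and 1754 in NT lapatinib cells. The log2 fold change was 0.42 (SE 0.07, edgeR adjusted p = 0.00124). Lapatinib therefore raised SOCS2 and CISH and lowered SOCS3 and SOCS1 within 1 family of inhibitors.

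STAT6, the factor activated by interleukin-4 and interleukin-13, measured 614, 1157 and 581 normalized counts in NT DMSO cells and 1254, 1801 and 1315 in NT lapatinib cells. Both groups were highest in replicate 2, and the lowest lapatinib library lay above the highest DMSO library. The log2 fold change was 0.91 (SE 0.27, edgeR adjusted p = 0.0167). The call was lost without NT DMSO replicate 1 or replicate 3, with adjusted p up to 0.0591. Without replicate 2 of every group the log2 fold change was 1.11 (edgeR adjusted p = 2.37e-07). Leaving out replicate 2 of every group, here and below, was chosen after the data were seen. Calls made that way are no independent test. Within replicate numbers the fold of STAT6 was 2.04, 1.56 and 2.26.

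STAT5A, one of the paired factors that transmit the prolactin signal, showed the same replicate pattern, with 112, 186 and 106 normalized counts in NT DMSO cells and 254, 287 and 203 in NT lapatinib cells. The groups did not overlap, and the log2 fold change was 0.9 (SE 0.23, edgeR adjusted p = 0.0105). STAT5B, its near-identical partner, measured 3554, 3587 and 3682 normalized counts in DMSO and 3268, 3450.1 and 3341 in lapatinib. Although the STAT5B libraries did not overlap, the log2 fold change of -0.08 (SE 0.05, 95% interval -0.19 to 0.02) did not pass the test (edgeR adjusted p = 0.152). Without replicate 2 of every group, STAT5B was called lower (log2 fold change -0.12, adjusted p = 0.0333).

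STAT3 went from 13974, 15219 and 13429 normalized counts in NT DMSO cells to 16646, 17111 and 16182 in NT lapatinib cells. The lapatinib libraries were all higher, by a log2 fold change of 0.25 (SE 0.06, edgeR adjusted p = 0.0067). Both receptor genes rose as well. IL6ST went from 2003, 1835 and 2104 to 2492, 2480.0 and 2565 normalized counts, a log2 fold change of 0.36 (SE 0.06, edgeR adjusted p = 0.000891). PRLR, the prolactin receptor, went from 4839.8, 4282 and 4867 to 6249, 5210.4 and 5966 normalized counts, a log2 fold change of 0.34 (SE 0.08, edgeR adjusted p = 0.0063). Neither receptor gene had overlapping groups.

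With FOXA1 siRNA, lapatinib raised 6 of the 10 genes (STAT6, SOCS2, STAT5A, CISH, STAT3 and IL6ST) and lowered SOCS3 and SOCS1. In this comparison 58.2% of 13745 genes were called, 29% higher and 29.1% lower. The median log2 fold change was 0.32 over the 10 genes and 0.01 over all genes. SOCS3 alone passed a change of 1 on the log2 scale, as did 4.93% of all genes upward and 5.12% downward. With a block on replicate number, 7 genes were called higher and 3 lower, since PRLR (adjusted p = 0.00429) and STAT5B (adjusted p = 0.019) then passed, and 68.6% of all genes were called.

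SOCS2 measured 33, 34.4 and 22.8 normalized counts in FOXA1 siRNA DMSO cells and 52.7, 47.1 and 53.2 with lapatinib. All lapatinib libraries were higher, but none reached the lowest NT DMSO library. The log2 fold change was 0.77 (SE 0.21, edgeR adjusted p = 0.0131), and the fold within replicate numbers was 1.6, 1.37 and 2.33. Few reads lie behind each of these SOCS2 values. SOCS3 measured 35, 50.2 and 21.9 normalized counts in DMSO and 9.3, 16.3 and 11.3 in lapatinib. The groups did not overlap, and SOCS3 fell by 1.51 on the log2 scale (SE 0.37, edgeR adjusted p = 0.00828) from a level at which few reads lie behind each value.

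CISH went from 1091, 1007 and 1136 to 1608, 1544 and 1672 normalized counts with lapatinib under FOXA1 siRNA, a log2 fold change of 0.58 (SE 0.06, edgeR adjusted p = 0.000108). SOCS1 went from 163, 161 and 153 to 131, 124 and 118 normalized counts, a log2 fold change of -0.35 (SE 0.11, edgeR adjusted p = 0.0263). Neither pair of groups overlapped. The SOCS1 call was lost without FOXA1 siRNA DMSO replicate 1 or 2 or without FOXA1 siRNA lapatinib replicate 2 or 3, with adjusted p up to 0.099, without replicate 2 of every group (adjusted p = 0.0643), and with DESeq2 (adjusted p = 0.0687).

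STAT6 went from 815, 1219.9 and 778 to 1704, 2041 and 1742 normalized counts, a log2 fold change of 0.97 (SE 0.16, edgeR adjusted p = 0.00111). STAT5A went from 126, 145 and 87.6 to 174, 229.7 and 169.9 normalized counts, a log2 fold change of 0.69 (SE 0.2, edgeR adjusted p = 0.0187), and that call was lost without FOXA1 siRNA lapatinib replicate 2 (adjusted p = 0.0568). In both genes every lapatinib library lay above every DMSO library. STAT3 went from 13985, 14968 and 13319.7 to 17968, 18729 and 16867 normalized counts, a log2 fold change of 0.35 (SE 0.06, edgeR adjusted p = 0.000846). STAT5B measured 3321, 3517 and 3220.0 normalized counts in DMSO and 3099, 3209 and 3026 in lapatinib, and its log2 fold change of -0.1 (SE 0.05) did not pass the test (edgeR adjusted p = 0.112).

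Of the receptor genes, IL6ST went from 1667, 1641 and 1691 to 2063, 2028 and 2015 normalized counts, a log2 fold change of 0.3 (SE 0.04, edgeR adjusted p = 0.000633), with no overlap. PRLR measured 8076, 7021 and 8656 normalized counts in DMSO and 9203, 7770.3 and 9054 in lapatinib. The PRLR groups overlapped, because replicate 2 was low in both, and the log2 fold change of 0.14 (SE 0.09, 95% interval -0.07 to 0.34) did not pass the test (edgeR adjusted p = 0.211). PRLR was called without replicate 2 of every group (log2 fold change 0.13, adjusted p = 0.0374) and without FOXA1 siRNA lapatinib replicate 2 alone (log2 fold change 0.22, adjusted p = 0.0435).

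**Figure D2:**
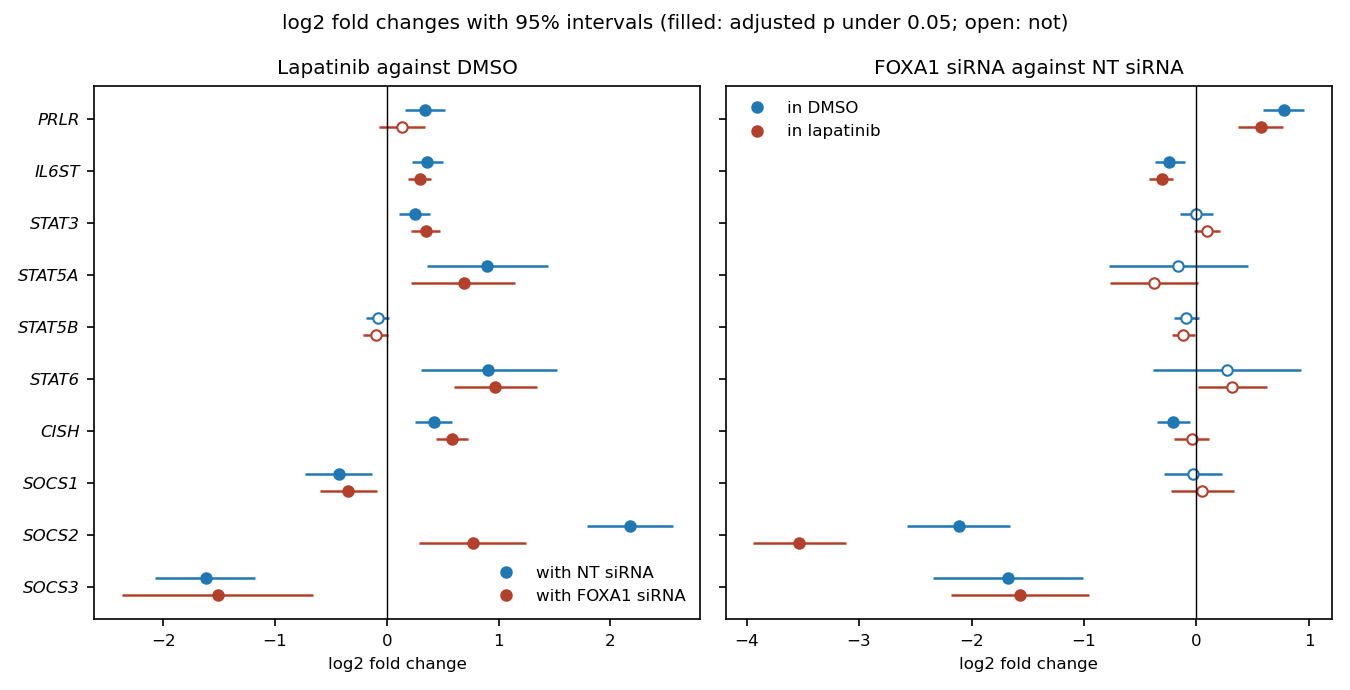
log2 fold changes (x axis) of the 10 genes after lapatinib (left) and after FOXA1 siRNA (right), as points with 95% intervals from edgeR on 3 replicates a group. Filled points passed an adjusted p under 0.05. SOCS2 rose by 2.18 after lapatinib with NT siRNA and by 0.77 with FOXA1 siRNA, SOCS3 fell in all 4 comparisons, and PRLR was raised by FOXA1 siRNA.

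In DMSO, FOXA1 siRNA lowered 4 of the 10 genes (SOCS2, SOCS3, IL6ST and CISH) and raised PRLR. This comparison shares its control libraries with that of lapatinib under NT siRNA. In this comparison 43.2% of 13694 genes were called, 21.9% higher and 21.3% lower, and the median log2 fold change was -0.12 over the 10 genes and -0.01 over all genes. SOCS2 and SOCS3 also fell by more than 1 on the log2 scale, as did 2.77% of all genes, and none of the 10 rose by as much, as did 4.06% of all genes. The block on replicate number made 2 genes higher and 5 lower, against 60.5% of all genes called, since STAT6 (log2 fold change 0.3, adjusted p = 0.00566) and STAT5B (log2 fold change -0.09, adjusted p = 0.0463) then passed.

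SOCS2 fell from 132, 115 and 148.6 to 33, 34.4 and 22.8 normalized counts, a log2 fold change of -2.11 (SE 0.2, edgeR adjusted p = 0.000134), 4.33-fold. SOCS3 fell from 98.5, 138.8 and 109 to 35, 50.2 and 21.9 normalized counts, a log2 fold change of -1.68 (SE 0.29, edgeR adjusted p = 0.00239), 3.2-fold. Both drops separated all libraries of the groups. In SOCS3 the level after FOXA1 siRNA alone overlapped the level after lapatinib alone.

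PRLR rose from 4839.8, 4282 and 4867 to 8076, 7021 and 8656 normalized counts, a log2 fold change of 0.78 (SE 0.08, edgeR adjusted p = 0.000223), and its fold within replicate numbers was 1.67, 1.64 and 1.78. IL6ST fell from 2003, 1835 and 2104 to 1667, 1641 and 1691 normalized counts, a log2 fold change of -0.24 (SE 0.06, edgeR adjusted p = 0.0118). The 2 receptor genes therefore moved in opposite directions after FOXA1 siRNA, each without overlap, while lapatinib with NT siRNA raised both. CISH fell from 1208, 1271 and 1286 to 1091, 1007 and 1136 normalized counts, a log2 fold change of -0.21 (SE 0.06, edgeR adjusted p = 0.0321). The CISH call was lost without NT DMSO replicate 2 or 3 or without FOXA1 siRNA DMSO replicate 1 or 2, with adjusted p up to 0.0992.

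The other 5 genes did not pass the test in DMSO. SOCS1 had a log2 fold change of -0.03 (95% interval -0.29 to 0.23) and STAT3 one of 0 (95% interval -0.15 to 0.15). STAT5A had a log2 fold change of -0.16 (95% interval -0.78 to 0.46). These intervals leave room for changes of different size, wide for STAT5A and narrow for STAT3. STAT5B had a log2 fold change of -0.09 (edgeR adjusted p = 0.153). STAT6 had a log2 fold change of 0.27 (SE 0.29, edgeR adjusted p = 0.479), with a fold within replicate numbers of 1.33, 1.05 and 1.34. STAT6 was called higher without replicate 2 of every group (log2 fold change 0.43, adjusted p = 0.000365) and without NT DMSO replicate 2 alone (log2 fold change 0.67, adjusted p = 0.0202).

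In lapatinib, FOXA1 siRNA lowered 3 of the 10 genes (SOCS2, SOCS3 and IL6ST) and raised PRLR. In this comparison 44.9% of 13727 genes were called, 22.7% higher and 22.2% lower, and the median log2 fold change was -0.08 over the 10 genes and -0.01 over all genes. SOCS2 and SOCS3 fell by more than 1 on the log2 scale, as did 3.9% of all genes, and none of the 10 rose by as much, as did 4.51% of all genes. The 2 siRNA comparisons have no library in common, but each shares 1 group with each lapatinib comparison. With the replicate block 3 genes were higher and 5 lower, with 61.7% of all genes called, as STAT3 (log2 fold change 0.09, adjusted p = 0.018) and STAT6 (0.33, adjusted p = 0.000202) passed upward and STAT5A (-0.38, adjusted p = 0.00439) and STAT5B (-0.12, adjusted p = 0.011) downward.

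SOCS2 fell from 605, 464 and 694 normalized counts in NT lapatinib cells to 52.7, 47.1 and 53.2 with FOXA1 siRNA. This was a log2 fold change of -3.53 (SE 0.18, 95% interval -3.94 to -3.12, edgeR adjusted p = 7.57e-06), 11.6-fold, and 11.5, 9.86 and 13-fold within replicate numbers. No other of the 10 genes changed by as much in any of the 4 comparisons of 1 treatment. SOCS3 fell from 36.9, 37.8 and 35.9 to 9.3, 16.3 and 11.3 normalized counts, a log2 fold change of -1.57 (SE 0.26, edgeR adjusted p = 0.00183).

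PRLR rose from 6249, 5210.4 and 5966 to 9203, 7770.3 and 9054 normalized counts, a log2 fold change of 0.57 (SE 0.09, edgeR adjusted p = 0.00119). IL6ST fell from 2492, 2480.0 and 2565 to 2063, 2028 and 2015 normalized counts, a log2 fold change of -0.31 (SE 0.05, edgeR adjusted p = 0.000874). Neither receptor gene had overlapping groups in lapatinib. The CISH groups overlapped, at 1679.9, 1516 and 1754 against 1608, 1544 and 1672 normalized counts, and the log2 fold change was -0.04 (95% interval -0.2 to 0.11, edgeR adjusted p = 0.629).

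STAT5A had a log2 fold change of -0.38 (SE 0.17, edgeR adjusted p = 0.0991), and it was called lower without NT lapatinib replicate 3 or without FOXA1 siRNA lapatinib replicate 2 (adjusted p down to 0.034) and without replicate 2 of every group (log2 fold change -0.42, adjusted p = 0.0402). STAT6 had a log2 fold change of 0.32 (SE 0.14, edgeR adjusted p = 0.0893) and was called higher with DESeq2 (adjusted p = 0.0473), without NT lapatinib replicate 2 (log2 fold change 0.5, adjusted p = 0.00258) and without replicate 2 of every group (log2 fold change 0.41, adjusted p = 0.000494). The call of each of these genes thus depended on the fit and on which libraries were kept. SOCS1 had a log2 fold change of 0.05 (95% interval -0.23 to 0.33), STAT3 one of 0.09 (edgeR adjusted p = 0.165) and STAT5B one of -0.12 (edgeR adjusted p = 0.0733).

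The siRNA by drug interaction over all 12 samples asks whether FOXA1 siRNA changed the response to lapatinib, and in it 7.19% of 14012 genes were called, 3.99% higher and 3.2% lower. Of the 10 genes SOCS2 was called. Its log2 response was smaller with FOXA1 siRNA by -1.4 (SE 0.28, 95% interval -2 to -0.79, edgeR adjusted p = 0.0113), that is, the fold rise was 2.63 times smaller. The call held in 12 of 12 fits that left out 1 library, with a difference between -1.56 and -1.26.

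The replicate block added PRLR (difference -0.18, SE 0.05, adjusted p = 0.0196), against 20.4% of all genes called with the block. Without the block the PRLR difference was -0.18 (SE 0.13, edgeR adjusted p = 0.465), and without replicate 2 of every group it was -0.21 (adjusted p = 0.0424). In each replicate number the PRLR fold was larger with NT siRNA (1.29, 1.22 and 1.23) than with FOXA1 siRNA (1.14, 1.11 and 1.05). SOCS3, which fell in both drug comparisons, had a difference of 0.12 with a wide interval of -0.85 to 1.09. CISH had a difference of 0.18 (95% interval -0.02 to 0.39, edgeR adjusted p = 0.28), and STAT6 one of 0.07 (95% interval -0.69 to 0.83). These intervals of SOCS3 and STAT6, from the fit without the block, are wide, so equal responses were not shown. With the replicate block the difference was 0.07 (SE 0.15) for STAT6 and 0.13 (SE 0.36) for SOCS3, neither called. Within replicate numbers the STAT6 fold was 2.04, 1.56 and 2.26 with NT siRNA and 2.09, 1.67 and 2.24 with FOXA1 siRNA.

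**Figure D3:**
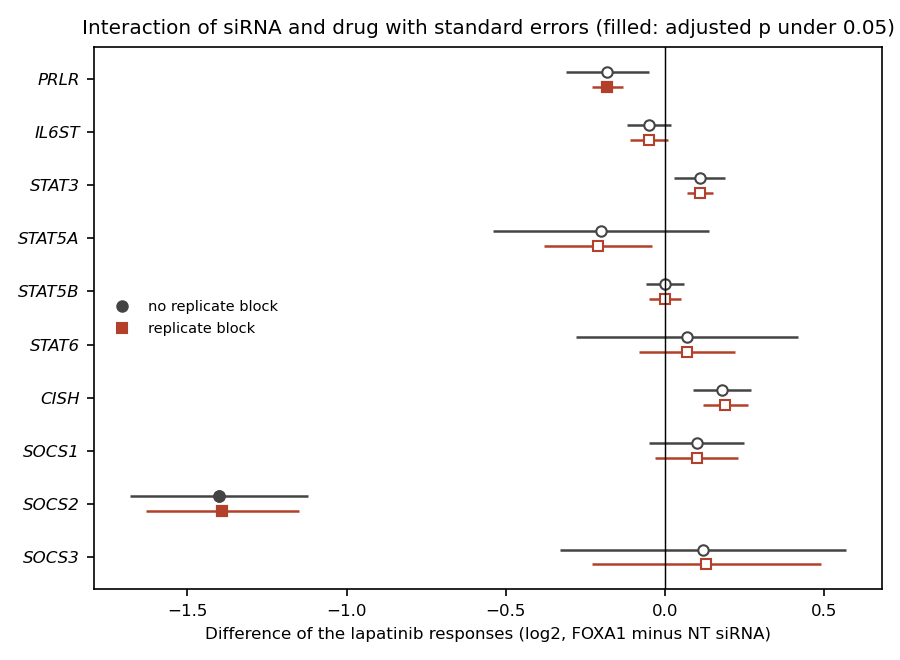
Difference of the log2 lapatinib responses, FOXA1 siRNA minus NT siRNA (x axis), for the 10 genes over 12 samples. Circles are without and squares with the replicate number as a block, bars are standard errors, and filled symbols passed an adjusted p under 0.05. SOCS2 lies at -1.4 and is filled in both fits, and PRLR is filled with the block alone.

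Several of the 10 genes followed the replicate number. STAT3, STAT5A, STAT6 and SOCS3 were highest in replicate 2 of 4 of 4 groups. SOCS1 was highest in replicate 1 of 4 of 4 groups and CISH in replicate 3 of 4 of 4. In STAT6 the replicate 2 library of NT DMSO cells lay 0.64 above its group mean on the log2 scale, against a lapatinib response of 0.91. Over all genes with a mean of at least 100 normalized counts, same-numbered libraries deviated together from their group means, as given with the processing.

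**Figure D4:**
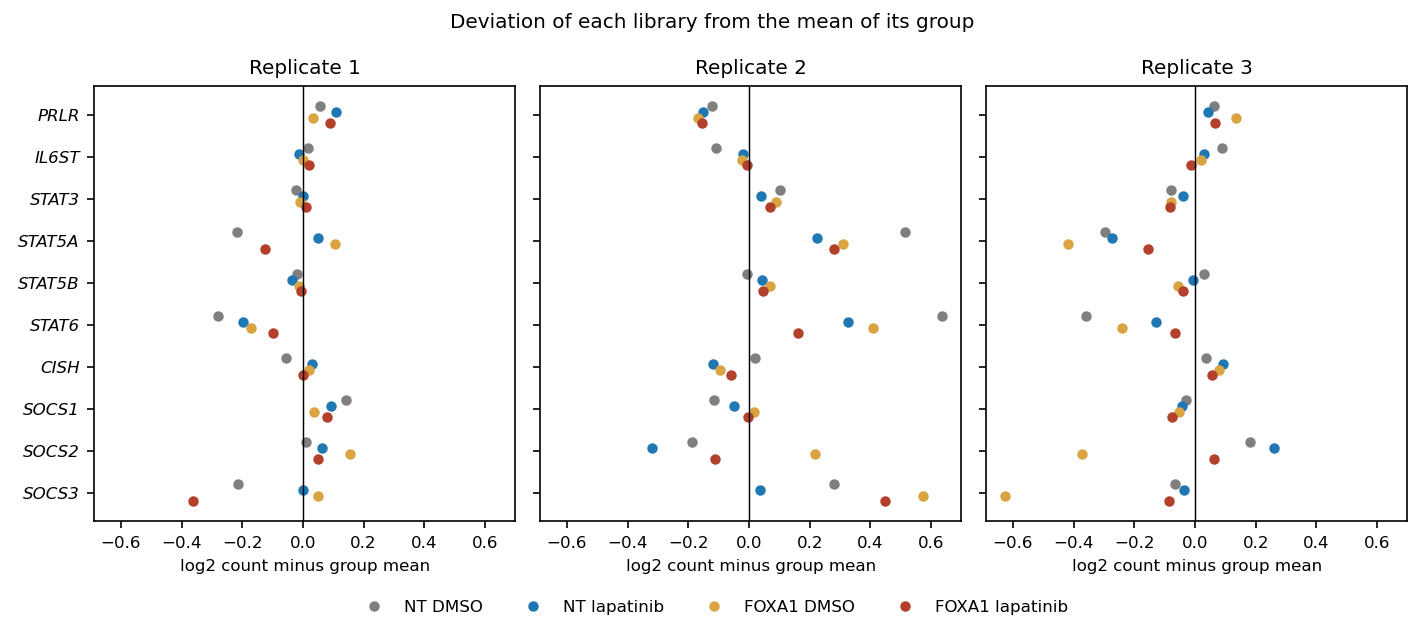
log2 normalized count minus the mean of the group (x axis) for each of the 10 genes in replicates 1, 2 and 3 (panels), with the 4 groups as coloured points. STAT6, STAT5A and SOCS3 lie to the right of 0 in replicate 2 of every group, and PRLR lies to the left in replicate 2.

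Several of the genes share sequence or genome positions with others, which can bear on their counts. STAT5A (RefSeq GRCh38.p14, chr17:42287439-42311943, plus strand) and STAT5B (chr17:42199177-42288370, minus strand) lie head to head, with STAT3 (chr17:42313324-42388442, minus strand) beside STAT5A. The STAT5 genes are close paralogs and share 415 exonic bases on opposite strands in the Gencode v44 annotation. The estimated counts of STAT5A and STAT5B were fractional in 12 of 12 libraries while their sum was whole in 12 of 12, so reads were divided between them. The other 8 genes had whole counts in every library. STAT5A took 2.65% to 7.68% of the pair, and the split into STAT5A and STAT5B is uncertain. The sum of the pair had a log2 fold change of -0.03 (SE 0.05, edgeR adjusted p = 0.564) after lapatinib with NT siRNA and of -0.06 (SE 0.05, edgeR adjusted p = 0.322) with FOXA1 siRNA. The lapatinib rise of STAT5A is thus not seen in the sum, of which it is a small share.

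CISH (chr3:50606489-50611774, minus strand) shares 218 exonic bases with MAPKAPK3 on the opposite strand, and strand use in the counting is not given in the sources used here. MAPKAPK3 moved against CISH, with 1831, 2138 and 1709 normalized counts in NT DMSO cells, 1361, 1471 and 1199 in NT lapatinib cells, and 3084, 3227 and 2878 in FOXA1 siRNA DMSO cells. STAT6 (chr12:57095408-57111362, minus strand) shares 69 exonic bases with NAB2 and 59 with LRP1 on the opposite strand. NAB2 fell where STAT6 rose, from 717, 834 and 640.4 to 514, 580.5 and 521 normalized counts after lapatinib with NT siRNA, whereas LRP1 went from 94.6, 131 and 68.1 to 166, 238 and 146 normalized counts, also highest in replicate 2. In FOXA1 siRNA DMSO cells LRP1 lay below all NT DMSO libraries, at 57, 62.3 and 37.1 normalized counts. With FOXA1 siRNA and lapatinib LRP1 measured 142.6, 135.5 and 87, highest in replicate 1. Whether LRP1 reads entered the STAT6 counts was not tested. SOCS2 (chr12:93569969-93626236, plus strand) shares 277 exonic bases with SOCS2-AS1 and IL6ST (chr5:55935095-55994963, minus strand) shares 797 with a long noncoding RNA, both on the opposite strand. The remaining genes, STAT3, SOCS1 (chr16:11254417-11256204, minus strand), SOCS3 (chr17:78356778-78360925, minus strand) and PRLR (chr5:35048756-35230487, minus strand), have no such exonic overlap in that annotation.

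The 250 bases before the start of each gene in the RefSeq GRCh38.p14 promoter table were searched on both strands. The STAT motifs were the palindromic TTCNNNGAA and the STAT6 form, which has 1 more base between the same ends. The forkhead motifs were TGTTTAC and TATTTAC. Of the 10 genes 9 matched the table, and SOCS2, which had no entry in it, was not searched. The CISH window is shown because it alone among the windows of these 9 genes held TTCNNNGAA. It holds 4 matches that do not overlap, in capitals, in chr3:50611775-50612024 on the minus strand.
CISH: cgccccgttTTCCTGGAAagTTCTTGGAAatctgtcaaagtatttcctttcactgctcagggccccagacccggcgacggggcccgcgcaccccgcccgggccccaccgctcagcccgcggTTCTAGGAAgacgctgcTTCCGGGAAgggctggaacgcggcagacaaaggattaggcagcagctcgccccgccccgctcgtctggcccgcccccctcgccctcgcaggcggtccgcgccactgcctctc
TTCNNNGAA was in 6.57% of 35116 such windows, and 5 of these windows (0.0142%) held 4 or more matches. The STAT6 form was in 1 STAT5A window and in 5.38% of all windows. The forkhead motifs, in 2.98% (TGTTTAC) and 2.39% (TATTTAC) of all windows, were in none of the windows of the 9 genes. This says nothing of SOCS2, which was not searched. These are matches of letters and not measured binding.

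By the root mean square difference of log2 profiles over the 12 samples, each centred on its own mean, the genes most like SOCS2 were C18orf1 (0.38) and ABCC11 (0.54). C18orf1 measured 351 to 394 normalized counts in NT DMSO cells, 1143 to 1258 in NT lapatinib cells, 85.7 to 106 in FOXA1 siRNA DMSO cells and 208.8 to 209.7 in FOXA1 siRNA lapatinib cells. The genes most like SOCS3 were CRISPLD2 (0.31) and MAP4K2 (0.36). CRISPLD2 measured 226 to 260 normalized counts in NT DMSO cells and 67.6 to 96.4 in NT lapatinib cells. With FOXA1 siRNA it measured 71.4 to 81 in DMSO and 22.7 to 32.75 in lapatinib. MAP4K2 measured 558 to 649 normalized counts in NT DMSO cells, 269 to 321 in NT lapatinib cells, 261 to 328 in FOXA1 siRNA DMSO cells and 95.2 to 109.6 in FOXA1 siRNA lapatinib cells. SOCS2 and C18orf1 shared a high NT lapatinib group, and SOCS3 and MAP4K2 shared a highest NT DMSO group and a lowest FOXA1 siRNA lapatinib group. These genes were picked for their likeness over the same samples, so the shared pattern follows from the choice.

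The other genes of the pathway were read from lists of kinases and regulators, cytokine receptors, ligands and STAT target genes. Of 24 kinases, other STATs and regulators, 23 were tested after lapatinib with NT siRNA, and 6 rose and 8 fell, with a median log2 fold change of 0, a share called near the 59.7% of all genes. For the lists that follow, the share of all genes called was likewise 59.7% after lapatinib with NT siRNA, 58.2% with FOXA1 siRNA, 43.2% after FOXA1 siRNA in DMSO, 44.9% in lapatinib and 7.19% in the interaction, and with the replicate block 67.3%, 68.6%, 60.5%, 61.7% and 20.4%. JAK1, the kinase bound to gp130, rose by a log2 fold change of 0.55 (SE 0.04, edgeR adjusted p = 1.89e-05), and PTPN6, the phosphatase SHP1, by 0.67 (edgeR adjusted p = 0.000455). The adaptor SH2B2 had a log2 fold change of -1.33 and PTPN11, the phosphatase SHP2, one of -0.61, both called lower. With FOXA1 siRNA, 5 of these genes rose and 8 fell after lapatinib. JAK1 rose there by 0.53 and PTPN6 by 0.62, and SOCS4 and SOCS6, further members of the SOCS family, had log2 fold changes of -0.55 and -0.41. SOCS4 was also lower after lapatinib with NT siRNA, with a log2 fold change of -0.52 (edgeR adjusted p = 0.000781). In the interaction 1 gene of this list was called, SOCS6 (-0.73, edgeR adjusted p = 0.00118), and with the replicate block 3 were higher and 2 lower. SOCS6 rose by 0.34 with NT siRNA and fell by 0.41 with FOXA1 siRNA.

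FOXA1 siRNA raised 3 and lowered 9 of the 23 genes of this list tested in DMSO, and raised 3 and lowered 6 in lapatinib. With the replicate block 5 were higher and 9 lower in DMSO, and 5 higher and 7 lower in lapatinib. The SUMO ligases PIAS3 and PIAS4, which restrain STAT proteins, were lower. PIAS3 had log2 fold changes of -0.92 in DMSO and -1.17 in lapatinib, and PIAS4 had -0.56 and -0.66. SOCS6 was higher in DMSO by 0.9 (edgeR adjusted p = 7.98e-05).

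Of 33 cytokine receptor genes, 19 were tested after lapatinib with NT siRNA, and 8 rose and none fell, with a median log2 fold change of 0.18. LIFR, which pairs with gp130 to bind leukemia inhibitory factor, rose from 46.3, 72.4 and 54.6 to 153, 150.1 and 162 normalized counts, a log2 fold change of 1.44 (SE 0.19, edgeR adjusted p = 0.00024). LIFR was also raised by FOXA1 siRNA, by 1.26 in DMSO and 1.12 in lapatinib, where IL6ST was lower. LEPR, the leptin receptor, rose by 0.92 after lapatinib with NT siRNA and by 0.95 after FOXA1 siRNA in DMSO. The interferon receptor chains IFNAR1 and IFNAR2 rose by 0.58 and 0.78 after lapatinib with NT siRNA and by 0.74 and 0.5 with FOXA1 siRNA. In that second comparison 9 of 22 receptor genes rose and 3 fell, and IL13RA1, a receptor chain for interleukin-13, had a log2 fold change of -0.4 and an interaction of -0.46 (edgeR adjusted p = 0.00218). FOXA1 siRNA raised 5 of 20 receptor genes and lowered 1 in DMSO, and raised 8 of 18 and lowered 2 in lapatinib. With the replicate block 8 were higher and 2 lower in DMSO and 8 higher and 3 lower in lapatinib, and the interaction went from 1 higher and 1 lower of 22 to 3 higher and 2 lower.

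Ligand genes were mostly too low to test, with 8 to 10 of 26 passing the filter in any comparison. PRL, GH1, OSM, IL4, IL13, IL10 and TSLP had 0 counts in 12 of 12 libraries, where a count of 0 allows up to 3 counts, and IL6 had at most 2.38 normalized counts. Transcripts of prolactin and of the interleukins that act through STAT6 were thus not detectable in these cells at this depth. Of the ligand genes tested, 1 rose and 1 fell after lapatinib with NT siRNA, 1 rose and 2 fell with FOXA1 siRNA, and FOXA1 siRNA raised 1 and lowered 1 in DMSO and raised 2 and lowered 2 in lapatinib. With the replicate block FOXA1 siRNA raised 2 and lowered 2 in DMSO and raised 2 and lowered 3 in lapatinib. IL12A, a subunit of interleukin-12, had log2 fold changes of -1.62 in DMSO and -1.43 in lapatinib after FOXA1 siRNA (edgeR adjusted p = 9.9e-05 and 9.14e-05).

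Of 22 genes known as STAT targets in various cells, 20 were tested after lapatinib with NT siRNA, and 11 rose and 3 fell, with a median log2 fold change of 0.31. The transcriptional repressor BCL6 rose by a log2 fold change of 1.63 (edgeR adjusted p = 2.04e-06) and ELF5, a prolactin-responsive factor of the secretory mammary epithelium, by 1.14 (edgeR adjusted p = 0.000101). CCND1, which encodes cyclin D1, had a log2 fold change of -2.18 (edgeR adjusted p = 1.42e-05). With FOXA1 siRNA 6 of 19 target genes rose and 3 fell after lapatinib, with log2 fold changes of 1.58 for BCL6 and -2.33 for CCND1. FOXA1 siRNA raised 4 of 19 target genes and lowered 6 in DMSO, and raised 2 of 20 and lowered 6 in lapatinib. The replicate block turned this balance, with 8 higher and 7 lower in DMSO and 9 higher and 6 lower in lapatinib. After lapatinib the block gave 12 higher and 5 lower with NT siRNA and 7 higher and 5 lower with FOXA1 siRNA. BCL2L1, which encodes the survival protein BCL-XL, had log2 fold changes of -0.88 in DMSO and -1.36 in lapatinib. In the interaction 3 of 20 target genes were called lower, ELF5 (-0.74, edgeR adjusted p = 0.0339) and BCL2L1 (-0.46, edgeR adjusted p = 0.019) among them, and none higher, whereas the replicate block called 3 higher and 6 lower. ELF5 was raised by FOXA1 siRNA in DMSO, by 0.94 (edgeR adjusted p = 0.000194). Its mean normalized counts were 573 in NT DMSO, 1245 in NT lapatinib, 1093 in FOXA1 siRNA DMSO and 1420 in FOXA1 siRNA lapatinib cells. The smaller ELF5 response to lapatinib thus started from a higher level.

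**Figure D5:**
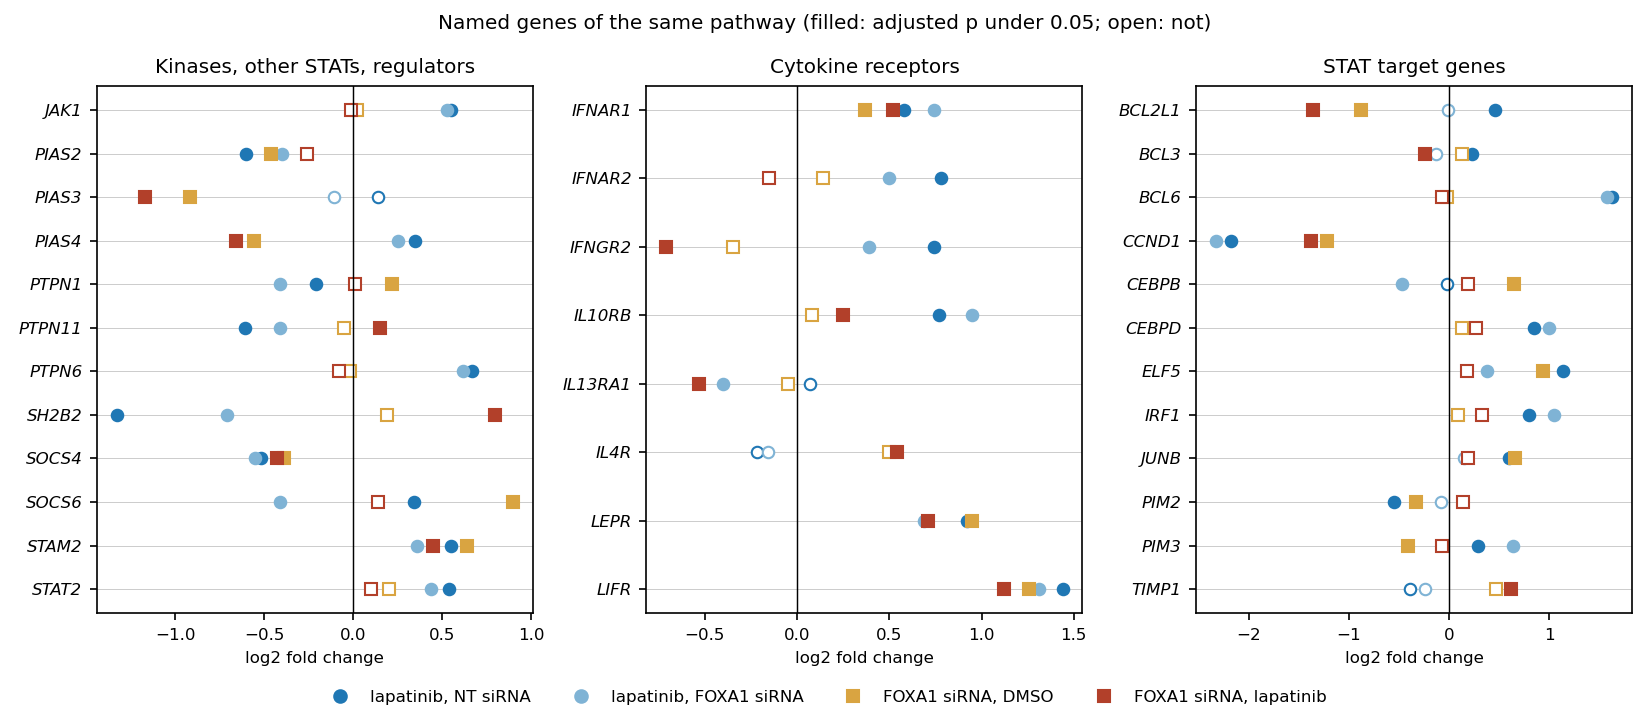
log2 fold changes (x axis) of the named kinases and regulators, receptors and STAT target genes in the 4 comparisons, circles for lapatinib against DMSO and squares for FOXA1 siRNA against NT siRNA. Filled symbols passed an adjusted p under 0.05. LIFR is filled to the right of 0 in all 4 comparisons and CCND1 is filled to the left in all 4, with a log2 fold change of -2.18 after lapatinib with NT siRNA.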

How the data were processed

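Expected counts of 12 SKBR-3 libraries, 4 groups of 3 replicates grouped by the sample labels, were analyzed. The members and gene lists were chosen with earlier results of these data known. The authors aligned reads to hg38 with STAR, quantified them with Salmon by the methods, and deposited an expected count (an estimated count that need not be whole) and TPM per gene. The processing notes name RSEM, DESeq2 1.12.3 and R 3.2.2. The labels name 2 library kits that disagree, 1 of them stranded. Genes with no symbol (29) held up to 0.046% of counts.

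Expected counts, of which 87.5% to 88.1% lay within 0.005 of a whole number, were rounded and tested in R 4.3.3 with edgeR 4.0.16 (quasi-likelihood, TMM) after a filter of 10 or more counts in 1 or more samples. Each comparison of 2 groups used its own 6 samples, and the interaction used 12. A gene was called at an adjusted p (Benjamini-Hochberg) under 0.05. The scripts were tested on simulated data. The deposited TPM was read only to order levels between genes. Library totals ran from 25749578 to 32271850 counts, and limits at a count of 0 cover counting error only. Nothing says whether replicates were separate cultures, so p-values measure the spread between these samples.

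Replicate numbers come from the labels. Same-numbered samples deviated together from their group means, so the number was also fitted as a block. The correlation over 18 pairs was 0.267 to 0.696, mean 0.427 across 10812 genes, against -0.199 for different numbers. Deviations from a group mean cancel within each group, so the -0.199 is tied to the 0.427 and is no separate baseline. Further alternatives were DESeq2 1.42.0, RLE or upper-quartile scaling, no filter, a filter of 10 counts in all samples, a single model of 12 samples, leaving out each sample, and, chosen after seeing the data, leaving out replicate 2 of every group and summing STAT5A and STAT5B. From each list, up to 3 genes per direction and comparison with the largest called log2 fold change and a mean of at least 100 normalized counts could be named (up to 2 for interferon-stimulated genes). One gene that this rule covers is not reported here. MAPKAPK3, NAB2 and LRP1 are named for their overlap. The ligands at 0, LIFR's sample values, ELF5's group means, IL6, ISG15 and the IFIT genes were chosen after their values were seen. Overlaps came from Gencode v44 and promoters and positions from RefSeq GRCh38.p14. Tables and plots were made in Python 3.11.15 with pandas 2.3.3 and matplotlib 3.10.9.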

Additional observations from a re-analysis of the deposited data

Results flagged for a closer look

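The SOCS2 response to lapatinib differed between FOXA1 siRNA and NT siRNA by a test of the difference itself. The difference was -1.4 on the log2 scale (edgeR's quasi-likelihood interaction test, adjusted p = 0.0113, and 0.00188 with the replicate block). Within replicate numbers the fold was 4.58, 4.04 and 4.67 with NT siRNA and 1.6, 1.37 and 2.33 with FOXA1 siRNA, a smaller rise in 3 of 3. The FOXA1 siRNA values rest on low counts, 22.8 to 34.4 in DMSO and 47.1 to 53.2 in lapatinib.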

How the results depend on the processing

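The direction of every change called in the main tests was kept in all alternatives run. With the replicate block, 2 genes were called higher after FOXA1 siRNA in DMSO, 3 higher and 5 lower in lapatinib, and 2 lower in the interaction. Without replicate 2 of every group, lapatinib raised 3 genes by at least 1 (log2) with NT siRNA, and with FOXA1 siRNA it raised 1 by at least 1 and lowered 1, FOXA1 siRNA raised 2 genes in either drug arm, and 2 were lower in the interaction. With DESeq2, lapatinib lowered 1 gene with FOXA1 siRNA, and FOXA1 siRNA raised 2 in lapatinib. At least 10 counts in every sample removed SOCS3 where a library lay under 10, leaving 1 gene lowered by lapatinib with FOXA1 siRNA (0 by at least 1) and 1 lowered by at least 1 by FOXA1 siRNA in lapatinib. Of values that passed no test, STAT3 after FOXA1 siRNA in DMSO was -0.00821 without a filter and -0.0118 with all 12 samples in one model, and the STAT5B interaction was 0.00203 without a filter and 0.034 without replicate 2. The cause was not tested.

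Leaving out 1 library gave, after lapatinib with NT siRNA, 6 to 7 genes higher, 1 to 2 lower and 1 to 3 higher by at least 1. With FOXA1 siRNA it gave 1 to 2 lower and 0 to 1 higher by at least 1. After FOXA1 siRNA it gave 1 to 2 higher in DMSO and 1 to 2 higher in lapatinib. Uncalled values changed sign, with ranges after FOXA1 siRNA of -0.078 to 0.0425 (SOCS1, DMSO), -0.0512 to 0.0601 (STAT3, DMSO), -0.335 to 0.149 (STAT5A, DMSO) and -0.107 to 0.000228 (CISH, lapatinib), and in the interaction of -0.14 to 0.457 (SOCS3), -0.0307 to 0.0334 (STAT5B) and -0.325 to 0.303 (STAT6). RLE and upper-quartile normalization moved no call, and SOCS3 at 9.3 to 16.3 normalized counts was the value most limited by depth.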

Other observations

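Interferon-stimulated genes are switched on by interferons through JAK kinases. Of 14 such genes 12 were tested after lapatinib, and 7 rose and 1 fell with NT siRNA while 8 rose and none fell in FOXA1-depleted cells, with a median log2 fold change of 1.08 in each. The share called in either direction lay near that of all genes, 59.7% and 58.2%, and the median of all genes was 0.03 and 0.01. Of all genes 30.5% and 29% were called higher. Called rises of at least 1 (log2) numbered 6 of 12 with NT siRNA and 7 of 12 with FOXA1 siRNA, against 6.64% and 4.93% of all genes. OAS1, an antiviral RNA sensor, rose by 1.77 (log2) in NT cells and by 1.22 in FOXA1-depleted cells (edgeR adjusted p = 0.00553 and 0.000936), and IRF9 had 1.38 and 1.3 (edgeR adjusted p = 0.00685 and 0.00106). ISG15 went the other way in NT cells, from 92.6, 116 and 90.1 to 54.7, 67.6 and 49.25 normalized counts. IFIT1, IFIT2 and IFIT3 averaged 4.6, 3.93 and 1.97 normalized counts in NT DMSO cells, so part of the list lay near the floor. After FOXA1 siRNA in DMSO edgeR called none of 11 tested (3 at an unadjusted p under 0.05, and 3 higher with the replicate block), and in lapatinib 2 of 12 higher and 2 lower (5 higher and 2 lower with the block). In the interaction edgeR called none of 12 (1 at an unadjusted p under 0.05), and 1 higher and 1 lower with the block.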
